A study of Arabidopsis thaliana with 9 samples.

Results

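The genes described here are 10 Arabidopsis thaliana loci that mark leaf senescence or break down chlorophyll. They were chosen by locus identifier as SAG12, SAG13, SAG21, SAG29, NAP, WRKY53, NYE1, NYC1, PPH and PAO, and all 10 were present among the 37869 loci of the count tables. The expression filter kept 9 of them among 22631 genes tested, and each of the 9 passed that filter in the Col-0 libraries alone. SAG12 had no counts and could not be tested.

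Leaf senescence is the ordered dismantling of a leaf, during which nitrogen and carbon are exported to growing organs and seeds. NAC and WRKY transcription factors set it in motion, and senescence-associated genes (SAGs) are transcripts that accumulate as it proceeds. Chlorophyll b is first converted to chlorophyll a, and magnesium and the phytol tail are then removed. Pheophorbide a oxygenase opens the ring, and later steps lead to colourless catabolites that end in the vacuole.

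Polyadenylated RNA came from whole seedlings 12 days old, raised on half-strength (½) MS medium in cycles of 16 h light and 8 h dark. The groups were wild-type Col-0 and, in that ecotype, pp4r3a-1 and pp4r3a-2 mutants, with 3 biological replicates each. PP4R3A encodes a regulatory subunit of protein phosphatase 4, and the labels used here do not state the kind of lesion in either allele or the hour of harvest. None of the groups was an ageing or dark-treated leaf, and the RNA of whole seedlings mixes organs, so fewer cells of a type and less RNA per cell cannot be told apart.

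Exon counts summed to 20733294 to 27022497 per library, and a level is given as counts per 1000000 exon counts (CPM), as mean ± SD over 3 libraries. The PP4R3A transcript averaged 81.6 ± 1.74 CPM in wild type against 62.7 ± 3.40 in pp4r3a-1 and 18.0 ± 0.378 in pp4r3a-2. It was lower in both mutants, by 0.37 and 2.13 on the log2 scale (edgeR adjusted p 3.44e-10 and 2.75e-30). Leaf markers (RBCS1A, LHCB1.3, CA1, GAPA1) summed to 30090 to 31240 CPM in Col-0, 24590 to 25920 in pp4r3a-1 and 27230 to 28520 in pp4r3a-2. LHCB1.3 and RBCS1A, at 14630 and 12090 CPM in Col-0, gave most of that sum. Taken alone, all 4 were called lower in pp4r3a-1. In pp4r3a-2, LHCB1.3 and CA1 were lower, GAPA1 was higher (log2 0.15, edgeR adjusted p 0.000449) and RBCS1A did not pass (0.173). Root markers (PYK10, WOX5, IRT1, COBL9, SCR) summed to 1830 to 1875, 2022 to 2145 and 1968 to 2010 CPM. PYK10, at 1786 CPM in Col-0, gave most of that sum. Singly, 3 were called higher and 1 lower in pp4r3a-1 and 2 higher and 2 lower in pp4r3a-2, with IRT1 lower in both. The 4 flower markers (AP1, AP3, PI, SHP1) summed to 2.87 to 3.47 CPM in Col-0, 3.07 to 3.30 in pp4r3a-1 and 4.34 to 4.82 in pp4r3a-2, where SHP1 was higher (log2 0.69; edgeR adjusted p 5.26e-05), while AP1 and AP3 averaged 0.0807 CPM or less in each genotype. Seed storage and oil body markers (CRA1, OLEO1, CRC) summed to 8.50 to 11.8, 54.8 to 61.9 and 85.7 to 88.3 CPM, higher in both mutants. The clock genes also differed, with CCA1 at 0.686, 28.7 and 25.7 CPM and TOC1 at 166, 101 and 82.9 CPM. The part of leaf, root, flower, seed and clock differences in the results below was not tested. Chloroplast-encoded genes held 0.962% and ribosomal RNA genes 0.503% of the counts of pp4r3a-2 replicate 3. The remaining libraries held 0.427% to 0.558% and 0.113% to 0.208%.

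The sequences just upstream of 3 genes are shown because SAG29 and NYC1 had the largest rise and the largest fall of the set in the mean of the mutants, and SAG13 rose nearly as far as SAG29. SAG13 was added after its values were seen. Each is the 250 bases before the annotated start of the gene in TAIR10.1, 5′ to 3′ on the gene's strand, read from the RefSeq genome. Capitals mark matches on either strand to the W-box core TTGAC (bound by WRKY factors), the G-box CACGTG, the ABRE core ACGTGNC (bound by abscisic acid-responsive bZIP factors) or the evening element core AATATCT (bound by clock-related MYB factors).
SAG29 (chr5:4183355-4183604, minus strand): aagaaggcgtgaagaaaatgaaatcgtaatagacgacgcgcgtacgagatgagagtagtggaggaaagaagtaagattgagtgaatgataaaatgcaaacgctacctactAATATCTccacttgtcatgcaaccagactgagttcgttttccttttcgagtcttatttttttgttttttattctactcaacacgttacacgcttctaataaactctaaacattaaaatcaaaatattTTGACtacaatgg
SAG13 (chr2:12600664-12600913, plus strand): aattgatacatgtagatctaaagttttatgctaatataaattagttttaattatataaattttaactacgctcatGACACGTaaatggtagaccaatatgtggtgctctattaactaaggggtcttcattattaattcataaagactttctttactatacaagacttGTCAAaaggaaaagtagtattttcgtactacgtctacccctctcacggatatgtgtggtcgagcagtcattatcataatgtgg
NYC1 (chr4:7687007-7687256, minus strand): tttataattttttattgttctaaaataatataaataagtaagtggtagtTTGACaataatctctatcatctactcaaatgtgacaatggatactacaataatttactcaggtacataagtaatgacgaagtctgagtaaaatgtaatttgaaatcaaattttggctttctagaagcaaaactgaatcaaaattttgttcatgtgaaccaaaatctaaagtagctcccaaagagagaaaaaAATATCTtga

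SAG29 and NYC1, which moved in opposite directions, held the same pair of motifs, a W-box core and an evening element core, and SAG13 held a W-box core and an ABRE core. Among the other promoters of the set, SAG21 held 3 W-box cores, WRKY53 held 2, and NAP held a W-box core and a G-box that overlapped an ABRE core. No match was found in the windows of SAG12, NYE1, PPH and PAO, and the PAO window lies within the neighbouring gene AT3G44870. These motifs are common: of 27443 promoter windows of the same length, 44.9% held a W-box core, 6.49% a G-box, 8.57% an ABRE core and 10.003% an evening element core. A match is a run of letters and not a tested binding site.

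Each mutant was first compared with Col-0 to learn whether the senescence and chlorophyll breakdown transcripts differed. In pp4r3a-1, 5 of the 9 tested genes rose, 3 fell and NAP did not pass the test. Across all genes tested, 36.3% were called higher and 36.1% lower in that comparison with edgeR's quasi-likelihood test at an adjusted p under 0.05, so the number of genes that moved is not particular to this set. In pp4r3a-2, 5 rose, 2 fell and NAP and PAO did not pass, against 35.6% higher and 35.8% lower over all genes. Called in both mutants were the rises of SAG13, SAG29, WRKY53, NYE1 and PPH and the falls of SAG21 and NYC1, against 28.4% and 28.6% of all genes called higher or lower in both. Both comparisons use the same Col-0 libraries. The median log2 change over the 9 genes in pp4r3a-1 was 0.19 and that in pp4r3a-2 was 0.28, beside medians of 0.00 over all genes.

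**Figure D1:**
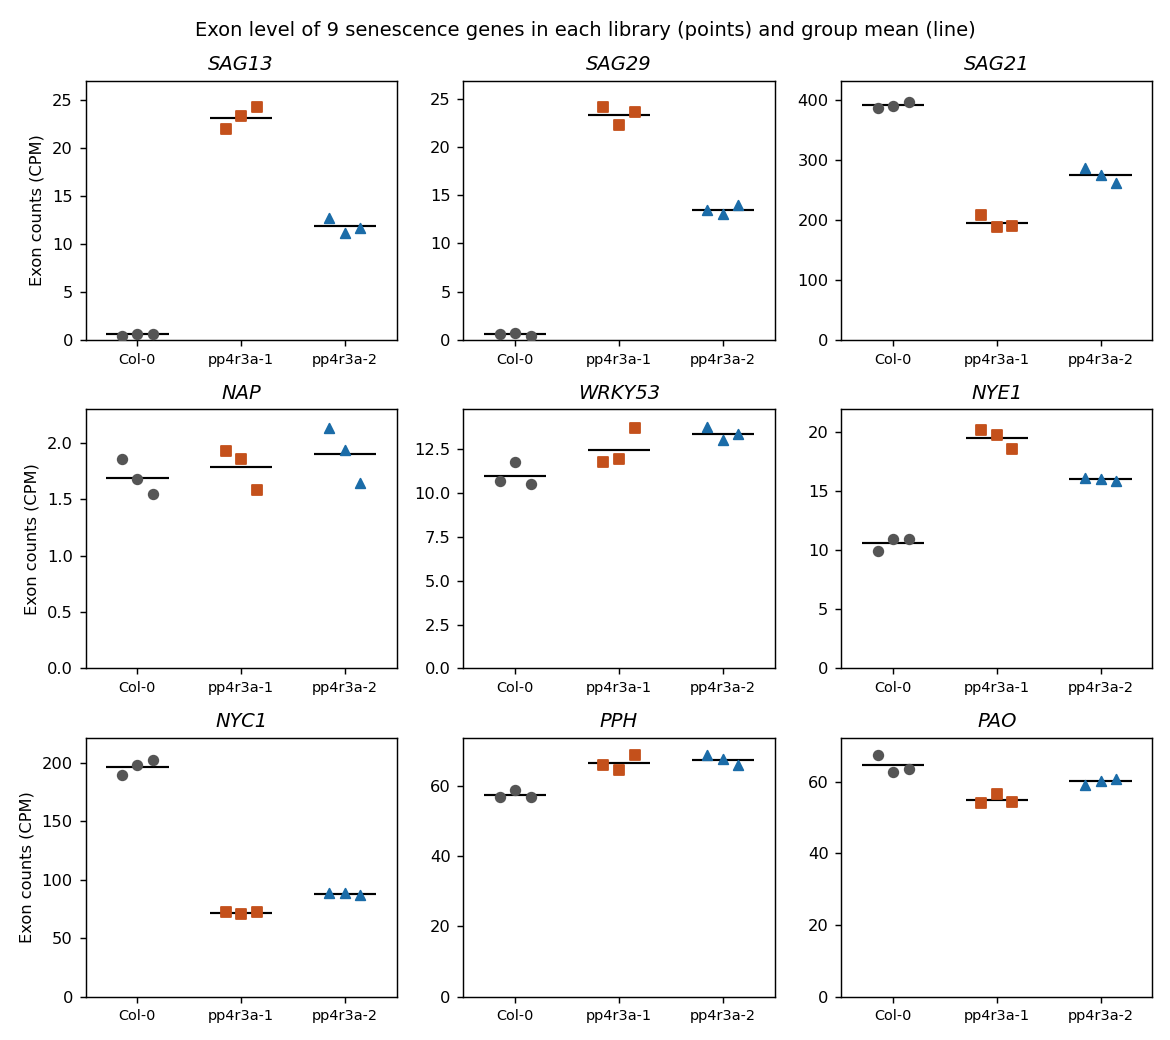
Exon level in CPM (linear axis from 0) of the 9 detected genes in each of 9 libraries; points are libraries and lines are means of 3. SAG13 and SAG29 are near 0 in Col-0 and above 10 CPM in every mutant library, while NYC1 and SAG21 are highest in Col-0.

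SAG12 (AT5G45890; chr5:18613239-18614963, plus strand), a cysteine protease gene widely used as a marker of age-dependent senescence, had 0 exon and 0 intron counts in all 9 libraries. With 3 counts as the limit that a count of 0 allows, its level was below 0.111 to 0.145 CPM, depending on the library, for counting error only. No difference between genotypes was therefore detectable for SAG12 at this depth.

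SAG13 (AT2G29350; chr2:12600914-12602556, plus strand) encodes a short-chain alcohol dehydrogenase and is an early marker of senescence and cell death. It stood at 0.434, 0.624 and 0.643 CPM in the wild-type libraries, 22.0, 23.3 and 24.3 CPM in those of pp4r3a-1, and 12.7, 11.1 and 11.7 CPM in those of pp4r3a-2. All mutant libraries lay far above all Col-0 libraries, and the pp4r3a-1 libraries lay above those of pp4r3a-2. The log2 change was 5.35 (SE 0.126), or 40.8-fold, in pp4r3a-1 and 4.42 (SE 0.147), or 21.4-fold, in pp4r3a-2 (edgeR adjusted p 3.88e-30 and 3.32e-25). Only 42 exon counts over the Col-0 libraries stand behind these folds. Counting error alone gives an SE of 0.225 and 0.228, so the smaller SEs above, derived from edgeR's F statistic, understate the uncertainty.

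SAG29 (AT5G13170; chr5:4181042-4183354, minus strand), also called SWEET15, encodes a sugar transporter of the SWEET family. Its Col-0 libraries held 0.632, 0.702 and 0.428 CPM, those of pp4r3a-1 24.1, 22.2 and 23.7 CPM, and those of pp4r3a-2 13.5, 13.1 and 13.9 CPM. As for SAG13, the genotypes did not overlap and pp4r3a-1 was highest. SAG29 rose by 5.30 (SE 0.125), or 39.3-fold, in pp4r3a-1 and by 4.54 (SE 0.141), or 23.3-fold, in pp4r3a-2 on the log2 scale (edgeR adjusted p 3.59e-30 and 4.24e-26). Its Col-0 libraries held 44 exon counts in all. Counting error gives an SE of 0.220 and 0.222, so here too the SEs above understate the uncertainty. In pp4r3a-1, 0.172% of tested genes changed more than SAG13 and 0.186% more than SAG29, and in pp4r3a-2 the shares were 0.270% and 0.239%.

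SAG21 (AT4G02380; chr4:1046042-1047105, minus strand), also called LEA5, encodes a mitochondrial late embryogenesis abundant protein that responds to oxidative stress. In contrast to SAG13 and SAG29, it was lower in the mutants. It stood at 387, 389 and 396 CPM in the wild-type libraries, 208, 188 and 189 CPM in those of pp4r3a-1, and 286, 275 and 262 CPM in those of pp4r3a-2. The 3 genotypes did not overlap, and pp4r3a-2 lay between the others. The log2 change was -0.99 (SE 0.040), or 1.99-fold lower, in pp4r3a-1 and -0.46 (SE 0.040), or 1.38-fold lower, in pp4r3a-2 (edgeR adjusted p 1.38e-22 and 7.89e-13). A noncoding gene is annotated on the same strand within 180 bases of its 968 bases of exon, so counts there could belong to either.

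The transcription factor genes moved little. NAP (AT1G69490; chr1:26122080-26123514, plus strand), a NAC factor that promotes senescence, stood at 1.86, 1.68 and 1.54 CPM in the wild-type libraries, 1.92, 1.86 and 1.58 CPM in those of pp4r3a-1, and 2.14, 1.94 and 1.64 CPM in those of pp4r3a-2. The 3 genotypes overlapped. Its log2 change was 0.09 in pp4r3a-1 (95% interval -0.257 to 0.439; edgeR adjusted p 0.655) and 0.22 in pp4r3a-2 (-0.125 to 0.569; edgeR adjusted p 0.263), so a change of the size of that of NYE1 lies outside both intervals.

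WRKY53 (AT4G23810; chr4:12392370-12393982, minus strand), a WRKY factor that acts early in senescence, stood at 10.7, 11.8 and 10.5 CPM in the wild-type libraries, 11.8, 11.9 and 13.7 CPM in those of pp4r3a-1, and 13.8, 13.1 and 13.4 CPM in those of pp4r3a-2. The pp4r3a-2 libraries lay clearly above Col-0, whereas the lowest pp4r3a-1 library barely exceeded the highest Col-0 library. WRKY53 rose by 0.33 (SE 0.077) on the log2 scale in pp4r3a-2 (edgeR adjusted p 0.000284) and by 0.19 (SE 0.077) in pp4r3a-1 (edgeR adjusted p 0.0313). The pp4r3a-1 call was lost with upper quartile scaling (adjusted p 0.0784), with DESeq2 (0.0854), and without Col-0 replicate 1 (0.0890), Col-0 replicate 3 (0.129) or pp4r3a-1 replicate 3 (0.210). AT4G23800 overlaps 311 bases of its exons on the opposite strand, and the strandedness of the counting is not known.

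The enzymes of chlorophyll breakdown moved in both directions. NYC1 (AT4G13250; chr4:7684156-7687006, minus strand), the chlorophyll b reductase that opens the route from chlorophyll b, was the most strongly lowered gene of the set. It stood at 190, 198 and 202 CPM in the wild-type libraries, 72.3, 70.8 and 73.0 CPM in those of pp4r3a-1, and 88.8, 88.8 and 87.5 CPM in those of pp4r3a-2. All mutant libraries lay far below Col-0. NYC1 fell by 1.44 (SE 0.038), or 2.72-fold, in pp4r3a-1 and by 1.11 (SE 0.037), or 2.16-fold, in pp4r3a-2 on the log2 scale (edgeR adjusted p 9.60e-29 and 4.16e-25).

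NYE1 (AT4G22920; chr4:12016420-12018643, minus strand), also called SGR1, encodes the magnesium dechelatase that turns chlorophyll a into pheophytin a. Its libraries held 9.95, 10.9 and 10.97 CPM in the wild-type libraries, 20.1, 19.7 and 18.5 CPM in those of pp4r3a-1, and 16.1, 16.0 and 15.9 CPM in those of pp4r3a-2. The 3 genotypes did not overlap. NYE1 rose by 0.89 (SE 0.068), or 1.85-fold, in pp4r3a-1 and by 0.64 (SE 0.071), or 1.56-fold, in pp4r3a-2 on the log2 scale (edgeR adjusted p 2.31e-14 and 4.68e-10).

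PPH (AT5G13800; chr5:4451733-4454813, minus strand), the pheophytinase that removes the phytol tail, stood at 56.9, 58.6 and 56.8 CPM in the wild-type libraries, 65.7, 64.4 and 68.7 CPM in those of pp4r3a-1, and 68.8, 67.6 and 65.8 CPM in those of pp4r3a-2. Both mutants lay above Col-0 and overlapped each other. Its rise was small, with a log2 change of 0.21 (SE 0.042; edgeR adjusted p 2.53e-05) in pp4r3a-1 and of 0.28 (SE 0.042; edgeR adjusted p 3.80e-07) in pp4r3a-2.

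PAO (AT3G44880; chr3:16383595-16386344, plus strand), the pheophorbide a oxygenase that opens the ring, stood at 67.5, 62.7 and 63.4 CPM in the wild-type libraries, 54.0, 56.6 and 54.4 CPM in those of pp4r3a-1, and 59.2, 60.3 and 60.8 CPM in those of pp4r3a-2. In CPM both mutants lay below Col-0, pp4r3a-1 further than pp4r3a-2. In pp4r3a-1, PAO fell by 0.22 (SE 0.042) on the log2 scale (edgeR adjusted p 1.44e-05). In pp4r3a-2 its change of -0.06 did not pass the test (95% interval -0.140 to 0.0255; edgeR adjusted p 0.224). It passed there under library size scaling (-0.10; adjusted p 0.0319) and upper quartile scaling (-0.11; adjusted p 0.0167). Its exons share 11 bases with AT3G44870.

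**Figure D2:**
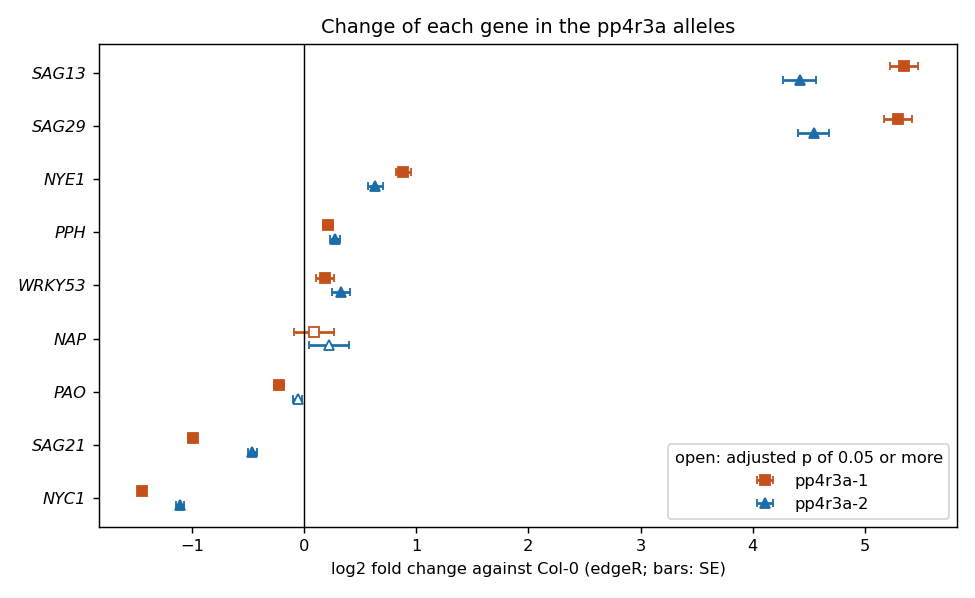
Log2 fold change of the 9 detected genes against Col-0 in pp4r3a-1 (squares) and pp4r3a-2 (triangles). Bars are SEs derived from edgeR's F statistic, for SAG13 and SAG29 smaller than counting error. Open symbols have an adjusted p of 0.05 or more. SAG13 and SAG29 lie between 4.42 and 5.35, and the other genes between -1.44 and 0.89.

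In CPM, all 3 pp4r3a-1 libraries lay above all Col-0 libraries for 5 of the 9 genes and below them for 3. The same counts were found for pp4r3a-2. Over all genes tested, 36.2% were higher and 37.3% lower without overlap in pp4r3a-1. The shares for pp4r3a-2 were 33.3% and 40.4%. With a minimum of 2-fold, SAG13 and SAG29 were the rises and NYC1 the fall left in each mutant, where 9.19% and 8.45% of all genes were called higher and 6.85% and 6.24% lower.

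Whether the mutants differed from each other was asked next. SAG13 (log2 -0.93, SE 0.068), SAG29 (-0.76, SE 0.067) and NYE1 (-0.25, SE 0.063) were lower in pp4r3a-2 than in pp4r3a-1 (edgeR adjusted p 3.55e-14, 4.58e-12 and 0.00133). SAG21 (0.53, SE 0.040), NYC1 (0.33, SE 0.039) and PAO (0.17, SE 0.043) were higher in pp4r3a-2 (edgeR adjusted p 9.72e-14, 3.75e-09 and 0.00144). Of all genes tested, 23.7% were called lower and 24.2% higher in that comparison. For each of these 6 genes the pp4r3a-2 mean lay between those of Col-0 and pp4r3a-1, whereas the PP4R3A transcript was lowest in pp4r3a-2. Libraries of the mutants did not overlap for these 3 lower and 3 higher genes, against 22.4% higher and 30.8% lower without overlap over all genes.

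NAP, WRKY53 and PPH did not pass the test between the mutants. Their log2 differences were 0.13 for NAP (95% interval -0.212 to 0.473; edgeR adjusted p 0.569), 0.14 for WRKY53 (-0.00406 to 0.292; 0.116) and 0.06 for PPH (-0.0183 to 0.145; 0.216). The WRKY53 difference passed without pp4r3a-1 replicate 3 (log2 0.21; adjusted p 0.0297).

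Levels of different genes were compared per kilobase of exon. In Col-0 the order was SAG21 (404 ± 5.03 CPM per kb), NYC1 (95.2 ± 2.99), PAO (32.0 ± 1.27), PPH (25.1 ± 0.451), WRKY53 (7.26 ± 0.455), NYE1 (6.01 ± 0.325), NAP (1.35 ± 0.126), SAG29 (0.435 ± 0.105), SAG13 (0.414 ± 0.0843) and SAG12 at 0. The libraries of SAG29 and SAG13 overlapped, and those of the other neighbours did not. SAG21 and NYC1 kept the highest ranks in both mutants, at 202 ± 11.7 and 34.8 ± 0.530 CPM per kb in pp4r3a-1 and at 283 ± 12.8 and 42.8 ± 0.367 CPM per kb in pp4r3a-2. SAG29 and SAG13 passed NYE1, WRKY53 and NAP in pp4r3a-1, at 17.3 ± 0.730 and 17.0 ± 0.844 CPM per kb beside 11.03 ± 0.477, 8.25 ± 0.706 and 1.43 ± 0.144. In pp4r3a-2 they reached 9.99 ± 0.325 and 8.66 ± 0.578 CPM per kb, and SAG13 overlapped NYE1 (9.05 ± 0.0602) and WRKY53 (8.85 ± 0.238). PPH and PAO exchanged places in pp4r3a-1 (28.9 ± 0.953 and 27.3 ± 0.687 CPM per kb) and overlapped in pp4r3a-2 (29.4 ± 0.642 and 29.8 ± 0.405).

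**Figure D3:**
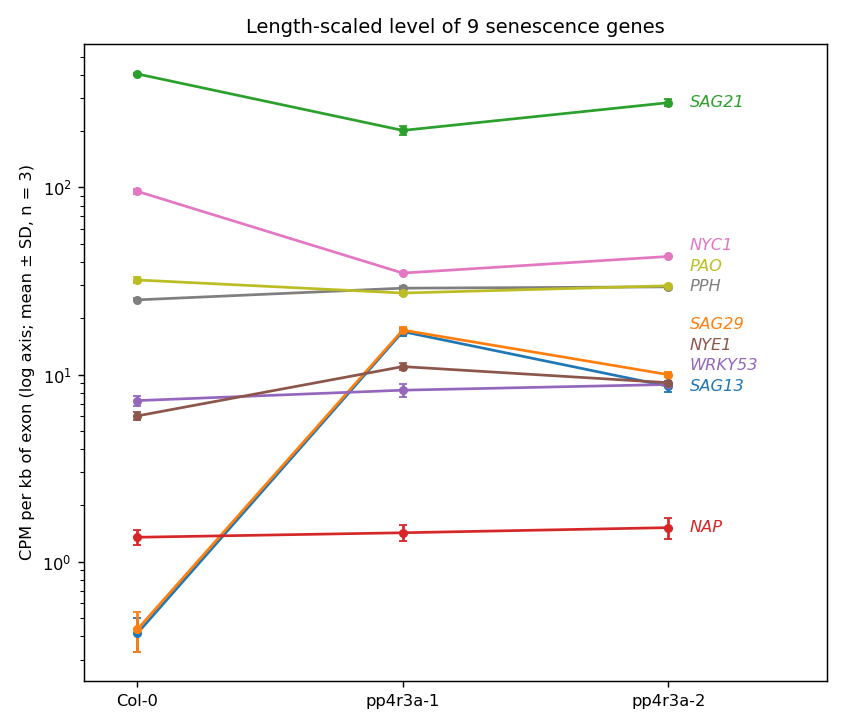
Mean level of the 9 detected genes per kilobase of annotated exon in the 3 genotypes (log axis); bars are SDs over 3 libraries. SAG13 and SAG29 climb from the bottom of the order in Col-0 to about the level of NYE1 and WRKY53 or above it, while SAG21 and NYC1 remain on top.

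Other genes of the pathway were taken from lists written with earlier results of these data known. Of 17 other genes of chlorophyll metabolism, 11 rose and 5 fell in pp4r3a-1 and 12 rose and 5 fell in pp4r3a-2; 10 rose and 4 fell in both, and 2 moved in opposite directions. Over all genes tested, 36.3% rose and 36.1% fell in pp4r3a-1, 35.6% and 35.8% did so in pp4r3a-2, and 28.4% and 28.6% in both. The median log2 change of the 17 genes was 0.35 and 0.34. The genes can be read along the pathway beside the members. At the conversion of chlorophyll b, where NYC1 fell, its partner reductase NOL went from 23.4 ± 0.961 CPM to 8.52 ± 0.272 and 9.19 ± 1.11 CPM (log2 -1.45 and -1.29), and HCAR, the reductase of the following step, from 77.2 ± 3.62 CPM to 22.6 ± 0.670 and 16.6 ± 0.868 CPM (-1.77 and -2.17). The edgeR adjusted p was at most 4.63e-18 for both genes in both mutants. At magnesium removal, where NYE1 rose, its paralog NYE2 rose by 0.82 and 0.58 and the related SGRL by 0.35 and 0.47 (edgeR adjusted p at most 0.00905), both named after their values were seen. BCM2, a thylakoid protein that restrains chlorophyll breakdown, rose from 27.3 ± 0.631 CPM to 99.0 ± 0.952 and 78.9 ± 0.906 CPM (log2 1.87 and 1.58). The chlorophyllase gene CLH2 rose by 1.39 and 1.44, and PES2, which esterifies free phytol, by 1.08 and 0.86 (edgeR adjusted p at most 3.87e-11 for these 3 genes). The methylesterase gene MES16, which acts on the late catabolites, fell by 0.78 and 0.29 (edgeR adjusted p 6.36e-07 and 0.0255). Other listed genes of the late steps did not share that fall. RCCR rose by 0.44 and 0.34 (edgeR adjusted p 1.62e-10 and 9.25e-08) and TIC55 by 0.18 and 0.13 (0.000183 and 0.0057). CYP89A9 fell in pp4r3a-1 and rose in pp4r3a-2. These 3 genes were named after their values were seen. BCM2, CLH2, PES2 and TIC55 overlap genes on the opposite strand and RCCR overlaps a gene on its own strand, so their counts are uncertain.

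Among 29 regulators of senescence, 18 rose and 7 fell in pp4r3a-1, 15 rose and 7 fell in pp4r3a-2, and 13 rose and 5 fell in both, with median log2 changes of 0.29 and 0.22. The shares of all genes that rose and fell were 36.3% and 36.1% in the first mutant, 35.6% and 35.8% in the second, and 28.4% and 28.6% in both. NAC019, a NAC factor related to NAP, rose from 0.272 ± 0.101 CPM to 4.48 ± 0.533 and 2.05 ± 0.367 CPM (log2 4.03 and 2.94). JUB1, a NAC factor that delays senescence, rose by 2.27 and 1.99, and PIF5, a phytochrome-interacting factor that promotes it in darkness, by 1.83 and 2.15. The falls in both mutants were smaller. The bZIP gene EEL fell by 1.09 and 0.75. The WRKY factor gene WRKY54, which restrains senescence, had changes of -0.34 and -1.497, and the cytokinin response regulator gene ARR2 fell by 0.29 and 0.30. The edgeR adjusted p was at most 0.00136 for these 6 genes in either mutant. JUB1 and EEL overlap other genes.

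Of 12 other senescence-associated genes, 8 rose and 4 fell in pp4r3a-1 and 8 rose and 3 fell in pp4r3a-2, with the same direction in both for 8 rises and 3 falls. Among all genes tested, 36.3% rose and 36.1% fell in the first mutant, 35.6% and 35.8% in the second, and 28.4% and 28.6% in both. SAG113, a protein phosphatase gene of abscisic acid signalling, rose by 2.70 and 0.72, SAG14, a blue copper protein gene, by 0.61 and 1.51, and SAG101, an acyl hydrolase gene, by 0.68 and 1.41. SEN1, a gene induced by darkness, fell further than any member, from 228 ± 8.80 CPM to 7.96 ± 0.379 and 45.9 ± 1.62 CPM (log2 -4.83 and -2.26). SAG20, a wound-induced gene, fell by 1.43 and 0.49, and SAG15, a Clp protease regulatory subunit gene, by 0.28 and 0.30. The edgeR adjusted p was at most 8.38e-05 for these 6 genes in either mutant.

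Among 18 genes of nitrogen remobilisation and autophagy, 7 rose and 9 fell in pp4r3a-1 and 7 rose and 10 fell in pp4r3a-2, 7 and 8 of them in both, and the median log2 change was -0.15 and -0.19. Of all genes tested, 36.3% and 35.6% were called higher, 36.1% and 35.8% lower, and 28.4% and 28.6% higher or lower in both. PPDK, pyruvate orthophosphate dikinase, rose by 1.31 and 1.36, NRT1.7, which loads nitrate into the phloem, by 1.28 and 0.40, and GLN1;3, a cytosolic glutamine synthetase gene, by 0.78 and 0.69. ASN1, the dark-inducible asparagine synthetase gene, fell by 2.87 and 0.51, GDH1, a glutamate dehydrogenase gene, by 1.17 and 0.91, and ATG8E, a ubiquitin-like autophagy protein gene, by 1.35 and 0.60. The edgeR adjusted p was at most 2.56e-11 for these 6 genes in either mutant. PPDK, ASN1 and GDH1 overlap genes on the opposite strand.

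**Figure D4:**
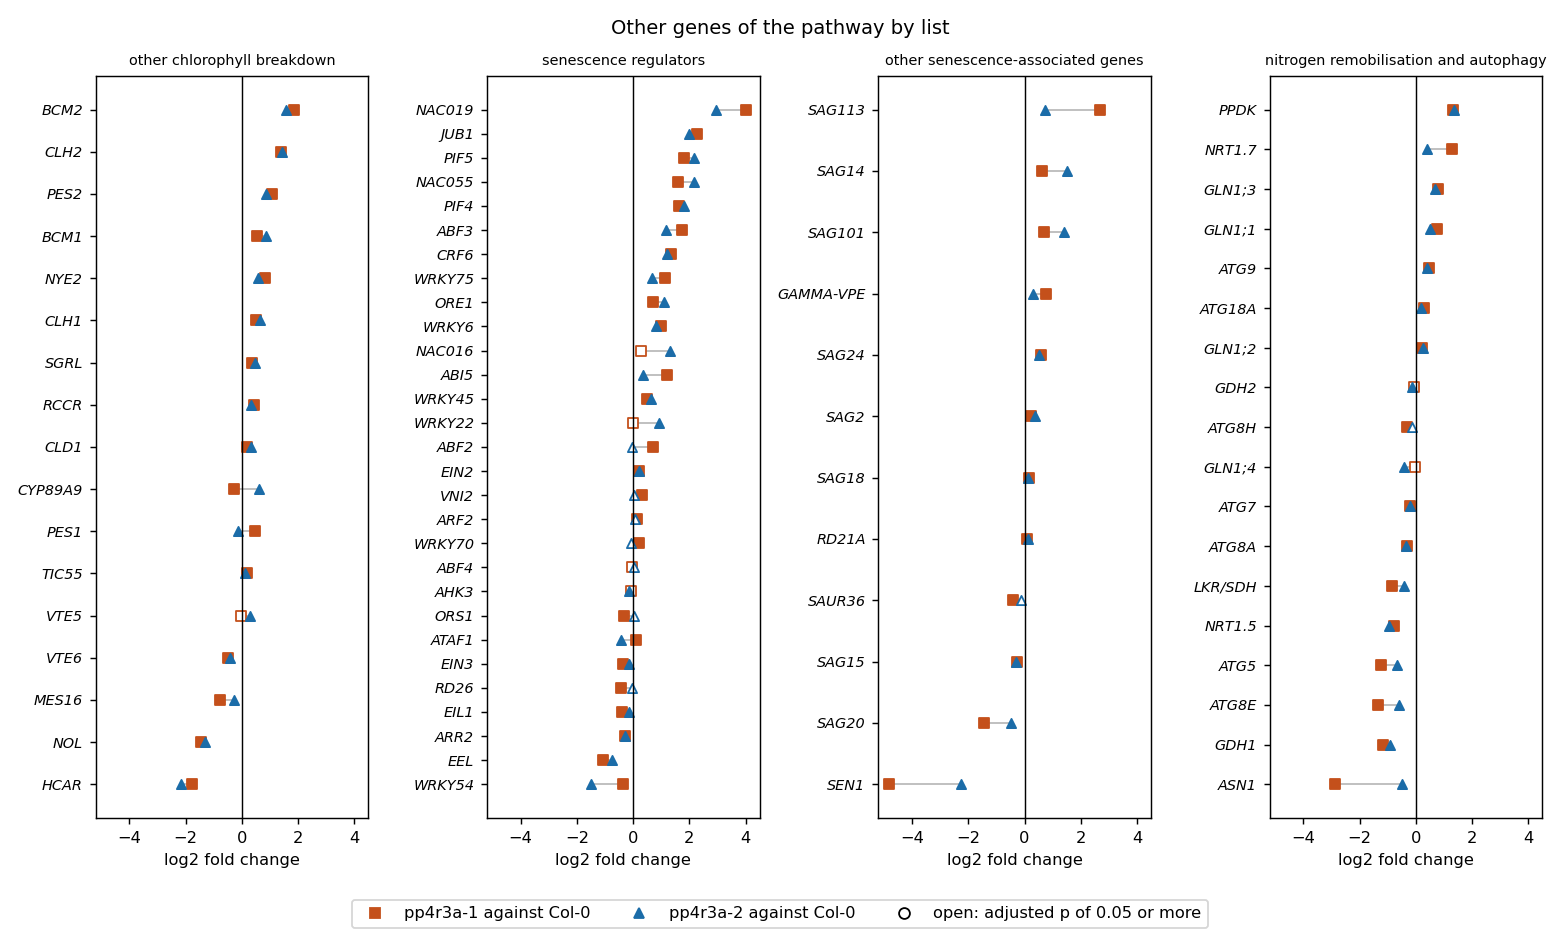
Log2 fold change against Col-0 of 17 other chlorophyll metabolism genes, 29 senescence regulators, 12 other senescence-associated genes and 18 genes of nitrogen remobilisation and autophagy in pp4r3a-1 (squares) and pp4r3a-2 (triangles); open symbols have an edgeR adjusted p of 0.05 or more. Each list holds rises and falls, from 4.03 for NAC019 to -4.83 for SEN1 in pp4r3a-1.

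The tables also hold intron counts, which the choice of genes did not use. An intron share is the intron counts per 100 exon counts of a gene, and 6 of the 10 genes had the 90 intron counts over 9 libraries that the test required. SAG29 had 39, NAP 18, WRKY53 13 and SAG12 none. The share rose for 5 of the 6 genes in pp4r3a-1 and for 4 in pp4r3a-2 and fell for none, where 77.7% and 69.9% of 11133 genes rose and 1.16% and 1.22% fell. The median log2 change of the share over all these genes was 0.99 and 0.87, so each value below is read against that shift.

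SAG21 stood above the shift. Its annotated introns, chr4:1046634-1046733 (100 bases, in 2 transcripts) and chr4:1046634-1046729 (96 bases, in 1 transcript), share an end and differ at their 5′ side. They are shown on the minus strand of TAIR10.1, with the terminal GT and AG in capitals.
SAG21 intron, 100 bases: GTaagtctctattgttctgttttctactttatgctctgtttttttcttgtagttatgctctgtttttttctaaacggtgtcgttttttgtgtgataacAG
SAG21 intron, 96 bases: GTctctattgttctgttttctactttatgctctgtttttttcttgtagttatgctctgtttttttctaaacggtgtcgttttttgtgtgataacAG

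SAG21 intron counts were 20, 44 and 33 in the wild-type libraries, 90, 109 and 93 in those of pp4r3a-1 and 75, 92 and 75 in those of pp4r3a-2, while its exon counts fell. The share was 0.334 ± 0.120 per 100 exon counts in Col-0, 2.03 ± 0.386 in pp4r3a-1 and 1.26 ± 0.147 in pp4r3a-2. The genotypes did not overlap, and the log2 change of the share was 2.58 (SE 0.168) and 1.90 (SE 0.176) (edgeR adjusted p 1.46e-37 and 1.73e-21). It was lower in pp4r3a-2 than in pp4r3a-1 by -0.68 (SE 0.141; edgeR adjusted p 0.000125), where 6.72% of genes were called lower and 1.5% higher, but limma on the log2 ratio gave an adjusted p of 0.337. With intron counts scaled by their own totals, a choice made after seeing the data, the rises were 1.61 (SE 0.168) and 1.01 (SE 0.176; edgeR adjusted p 5.89e-17 and 4.89e-07), and SAG21 was the only one of the 6 genes still called higher. Over all genes, 19.2% were called higher and 18.3% lower in pp4r3a-1 under that scaling, and 16.7% and 18.6% in pp4r3a-2, so 1 of 6 is near the background.

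The shares of NYC1, PPH and NYE1 rose by less than the median shift or close to it. The share of NYC1 went from 2.55 ± 0.333 to 3.52 ± 0.231 and 3.54 ± 0.158 (log2 0.46 and 0.47; edgeR adjusted p 0.00252 and 0.00139). With own-total scaling it was lower, by -0.52 and -0.43 (adjusted p 0.00121 and 0.00616). PPH went from 1.81 ± 0.329 to 2.80 ± 0.318 and 3.23 ± 0.452 (log2 0.61 and 0.83; edgeR adjusted p 0.00581 and 0.000157), and NYE1 from 2.62 ± 1.195 to 5.09 ± 0.909 and 5.18 ± 1.72 (log2 0.90 and 0.94; adjusted p 0.0145 and 0.0160). Under own-total scaling neither was called in either mutant. With few intron counts behind them, some of these calls rested on single libraries. The PPH call in pp4r3a-1 was lost without Col-0 replicate 3 (log2 0.48; adjusted p 0.0506). The NYE1 calls were lost in both mutants without Col-0 replicate 1 (log2 0.65 and 0.69; adjusted p 0.106 for each) or Col-0 replicate 3 (0.82 and 0.86; 0.0509 and 0.0524). Without pp4r3a-2 replicate 1 the NYE1 call in that mutant was also lost (0.64; 0.156).

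PAO went from 0.834 ± 0.0762 to 1.62 ± 1.05 and 1.24 ± 0.266 intron counts per 100 exon counts. Its pp4r3a-1 call (log2 0.90; edgeR adjusted p 0.00428) rested on replicate 3, which held 34 intron counts beside 10 and 20, and without that library the change was 0.33 (adjusted p 0.397). Its change of 0.58 in pp4r3a-2 did not pass (edgeR adjusted p 0.0845), but it passed without pp4r3a-2 replicate 3 (log2 0.72; adjusted p 0.0484). SAG13 had 1, 0 and 0 intron counts in Col-0 and 26 to 62 in the mutant libraries, and its share was 3.03 ± 5.25 in Col-0, 9.03 ± 1.58 in pp4r3a-1 and 9.997 ± 0.845 in pp4r3a-2, without passing the test (log2 1.47 and 1.61; edgeR adjusted p 0.123 and 0.102). It passed without Col-0 replicate 1 (log2 3.47 and 3.61; adjusted p 0.0302 and 0.0270), which leaves Col-0 with no intron count, so that value is no measured fold.

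**Figure D5:**
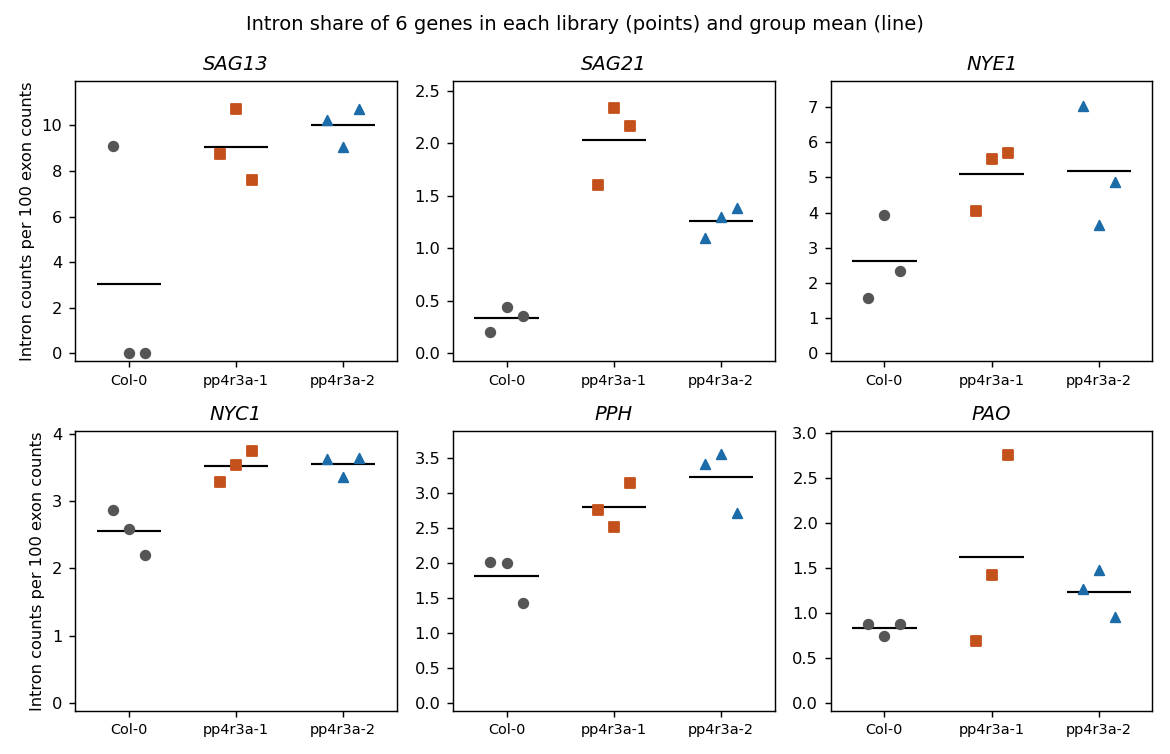
Intron counts per 100 exon counts (linear axis) of the 6 genes with at least 90 intron counts; points are libraries and lines are means of 3. The SAG21 libraries of Col-0 lie at 0.204 to 0.441 and those of the mutants at 1.10 to 2.34; a single pp4r3a-1 library lifts the mean of PAO.

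The genes whose levels ran most like each member were found by Pearson's r of log2(CPM + 0.5) over the 9 libraries among 10639 genes of at least 5 CPM without an overlapping gene. The libraries fall into 3 genotypes, so r mostly reflects the relative positions of the 3 group means and is given as a description. SAG13 ran closest to CYP71B26 and AT5G56350 (r 0.9995 and 0.9994), and SAG29 to UGT74E2 and mtHsc70-1 (both 0.9995). An r over 0.98 was shared by 530 genes for SAG13, 486 for SAG29, 443 for NYC1, 322 for NYE1 and 169 for SAG21, but by 7 for PPH and 0 for NAP, WRKY53 and PAO. NYC1 ran closest to DYL1 and AT1G30820 (0.9991 and 0.9990), NYE1 to GH3.3 and AT1G07373 (0.9978 and 0.9975), and SAG21 to AT2G26500 and AT3G03990 (0.9985 and 0.9981). The closest genes were CNGC11 and SDRB for PPH (0.9846 and 0.9839), WRKY45 and MUB2 for WRKY53 (0.9751 and 0.9549), AT1G72790 and IDN2 for PAO (0.9784 and 0.9740), and AT1G44835 and IBR5 for NAP (0.9222 and 0.8941).

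The annotated neighbours of the genes moved in several ways. SAG13 lies between AT2G29340 (log2 -0.63 and 0.66 in pp4r3a-1 and pp4r3a-2) and AT2G29360 (0.55 and 0.49), and SAG29 between PBS1 (0.30 and 0.29) and NAC083 (0.32 and 0.03, the latter with an edgeR adjusted p of 0.490), all of which changed less than SAG13 and SAG29. Beside SAG21, PARP2 rose by 1.68 and 2.07, in the other direction and further than SAG21, while AT4G02370 had changes of -0.39 and -0.39. RPL9, beside PAO, had changes of -1.06 and -0.90, larger than those of PAO. Beside WRKY53, AT4G23820 had changes of -0.86 and -0.46, larger than those of WRKY53, and AT4G23800 was called only in pp4r3a-1 (0.16). Beside PPH, AT5G13810 was called only in pp4r3a-1 (0.21) and AGL15 in neither mutant. ATG7, beside SAG12, had changes of -0.22 and -0.23, and AT1G69485, beside NAP, was not called. The other neighbours of SAG12, NAP and PAO could not be tested. Neither neighbour of NYE1 was called in either mutant (edgeR adjusted p 0.117 to 0.770), and those of NYC1 did not pass the expression filter and could not be tested.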

How the data were processed

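Per the file headers, the deposited tables give an exon count and an intron count per locus and library, taken as raw counts because they are whole numbers. Per the submitters' processing notes, reads were aligned with STAR. The genome build, annotation, counting program and strandedness are not given in the sources used here. Locus positions, exon lengths, overlaps and sequences came from RefSeq's TAIR10.1, in which 37573 of the 37869 loci were found, and may differ from the annotation the authors counted. No protein sequence was used here. The labels call the replicates biological and say no more of their origin. No replicate pair agreed within sampling noise (chi-square per degree of freedom 1.62 to 12.1).

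The filterByExpr filter left 22631 genes, whose exon counts were TMM-scaled. A single robust quasi-likelihood fit in edgeR covered all 9 libraries, with a mean for each genotype. Tests were two-sided, with Benjamini-Hochberg adjustment over all genes tested and calls at an adjusted p under 0.05. CPM values are unscaled counts per 1000000 exon counts, so they can differ slightly from the fitted changes. Intron and exon counts were compared in an edgeR model of their ratio, with library as a block, for 11133 genes with at least 90 intron counts. Intervals are 95% intervals from the fit. They and the limit of 3 counts do not cover batch effects.

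The members and lists were chosen with earlier results of these data known. Of each list, up to 3 genes per direction with the largest mean change were named, if called in the same direction in both mutants at a mean of at least 1 CPM. Genes named besides were chosen after their values were seen. PP4R3A, CCA1 and TOC1 were added as context.

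Alternatives were RLE, library size and upper quartile scaling, other filters and thresholds, DESeq2, limma voom, no organelle genes, a fit restricted to the genotypes compared, blocking on replicate number, and dropping each library in turn. On simulated counts for pp4r3a-1 against Col-0 over 22282 genes, edgeR found 89.5% of changes of 1.5-fold, 96.7% of those of 2-fold and 99.7% of those of 4-fold, with 7.37% of calls false. These changes were placed only in genes above a minimum Col-0 exon count, which SAG13 and SAG29 did not reach. Each draw changed 200 genes, far fewer than were called in the real comparison. No change under 1.5-fold was simulated, although those of WRKY53, PPH, PAO and NAP were smaller. The intron step, on 8244 genes and with a common spread for all, changed 200 genes 2-fold and recovered 81.0% of them. Its changes were placed only in genes above a minimum Col-0 intron count, which SAG13 and NYE1 did not reach. The recovery therefore does not cover those cases. Fits ran in R 4.3.3 with edgeR 4.0.16, DESeq2 1.42.0 and limma 3.58.1. Tables and plots were made in Python 3.11.15 with numpy 2.4.6, pandas 2.3.3 and matplotlib 3.10.9.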

Additional observations from a re-analysis of the deposited data

How the results depend on the processing

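The direction of every called exon change of the 9 genes held under all alternatives run. Besides the WRKY53 and PAO calls described with those genes, calls were lost only to the 2-fold minimum. That minimum left 2 of 5 rises and 1 of 3 falls in pp4r3a-1, 2 of 5 rises and 1 of 2 falls in pp4r3a-2, and 0 of 3 and 0 of 3 between the mutants. DESeq2 left 3 of 5 falls of chlorophyll metabolism genes in pp4r3a-2 and 3 of 5 lower nitrogen and autophagy genes between the mutants. Leaving out a library gave 3 (without Col-0 replicate 2) to 5 for the first of these and 3 (without pp4r3a-1 replicate 3 or any pp4r3a-2 library) to 6 for the second.

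Intron results depended on scaling. With intron counts scaled by their own totals, the medians over all genes became 0.02 and -0.02, and 1 gene was called higher (SAG21) and 1 lower (NYC1) in each mutant, near the shares over all genes (19.2% and 18.3% in pp4r3a-1, 16.7% and 18.6% in pp4r3a-2). The values of NYC1 (-0.52 and -0.43), PPH (-0.36 and -0.0631), PAO (-0.0700 and -0.312) and NYE1 in pp4r3a-1 (-0.0586) were then below 0. A minimum of 450 intron counts left 2 genes in the test, both higher in each mutant. The fit on genes without overlap kept 4 of the 6 genes, and 3 of these 4 rose in pp4r3a-1. SAG21 overlaps another gene and was left out of that fit, so its lower share between the mutants could not be called there. With limma, which kept all 6 genes, 0 were lower between the mutants. Leaving out a library gave 3 (without Col-0 replicate 3) to 5 rises in pp4r3a-1.

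No shared deviation of same-numbered libraries was seen. Their correlations of deviations ran from -0.041 to 0.031 over 9 pairs, beside -0.075 to 0.061 over 18 pairs of different number. How the libraries were grown or prepared cannot be read from these values. With the replicate number as a block the counts of members called were unchanged, at 5 higher and 3 lower in pp4r3a-1 and at 5 and 2 in pp4r3a-2, and each of 30 counts stayed within 1.5 times its value. Depth limits SAG12, the Col-0 levels of SAG13 and SAG29, and the introns of SAG13, SAG29, NAP and WRKY53.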

Other observations

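Some genes of the same lists, chosen after their values were seen, differed between the mutants in direction. CYP89A9, a cytochrome P450 gene that acts on late chlorophyll catabolites, fell by 0.28 on the log2 scale in pp4r3a-1 (edgeR adjusted p 0.0104) and rose by 0.61 in pp4r3a-2 (1.36e-07), a difference of 0.89 (SE 0.092; 2.04e-10). PES1, a phytyl ester synthase gene related to PES2, rose by 0.46 in pp4r3a-1 and fell by 0.14 in pp4r3a-2 (adjusted p 5.88e-11 and 0.0178 with edgeR), a difference of -0.60 (SE 0.049; 5.83e-13). ORE1, a NAC gene that drives senescence, rose in both, from a Col-0 level of 3.83 ± 0.448 CPM to 6.21 ± 0.981 and 7.97 ± 0.144 CPM (log2 0.71 and 1.11; edgeR adjusted p 1.74e-06 and 5.91e-11), whereas NAP did not pass the test in either. Of the autophagy genes listed, ATG5, ATG7, ATG8A and ATG8E fell in both mutants, ATG9 and ATG18A rose in both, and ATG8H fell in pp4r3a-1 (edgeR adjusted p at most 0.00690 for each). ATG5, ATG8A and ATG9 overlap genes on the opposite strand.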
